A study of Mus musculus with 10 samples.

Results

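Potassium channel subunits, taken as every gene whose symbol starts with Kcn except the noncoding transcript Kcnq1ot1, numbered 98 of the 55401 genes in the tables. The 98 include 5 genes placed in none of the current types below, namely Kcnrg and the antisense or noncoding Kcnd3os, Kcnab3os, Kcnmb4os1 and Kcnmb4os2. All 98 are called subunits here, although these 5 are not, and 0 of the 5 were tested. A mean of at least 0.5 FPKM (a transcript level in sequenced fragments, corrected for gene length and library depth) over the 10 libraries was required for testing, and 27 of the 98 subunits and 13476 genes in all passed it. The libraries were made from left ventricular (LV) tissue of WT mice, 5 after nAAC (neonatal ascending aorta constriction, a band placed around the aorta within a day of birth that makes the left ventricle pump against raised pressure) and 5 after sham surgery. All were C57BL/6 mice at 4 weeks of age, reared with their mothers, with the sexes distributed at random and 1 library per mouse. The comparison asks how the LV transcriptome of the pressure-overloaded young heart differs from that of the sham heart.

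Potassium channels let potassium leave the cell and thereby end the cardiac action potential and hold the membrane at rest. Pore-forming alpha subunits assemble in fours, or in pairs for the two-pore family, and accessory subunits set how many channels reach the surface and how fast they open and close. In the mouse ventricle a fast transient outward current and several delayed rectifiers carry most of the repolarization, inward rectifiers hold the resting potential, and loss of potassium currents is a known feature of the hypertrophied and failing heart.

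In nAAC LV samples, 8 of the 27 tested subunits fell, 3 rose and 16 did not pass the test. The test was limma on log2(FPKM + 1), a subunit being said to rise or fall at a Benjamini-Hochberg adjusted p below 0.05 over all 13476 genes. Over those genes 4.65% fell and 26.5% rose. With FPKM as deposited, the subunits' share of decreases thus lay above the background and their share of increases below it. Under the stricter definition of a differentially expressed gene (DEG), which adds an absolute log2 fold change (FC) above 1, 3 subunits were lower and 0 were higher, against 0.846% and 4.54% of all genes. The 0 holds also at an unadjusted p, since the largest increase was 0.66 on the log2(FPKM + 1) scale, a scale that understates the change of low genes. The FPKM of all 5 nAAC mice lay below that of all 5 sham mice for 6 subunits and above it for 3, against 3.49% and 18.5% of all genes. Of the decreases in these counts, 1 (Kcnv2) was of a gene that reached the limit for testing only through its level in sham mice.

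The choice of scaling moved the whole distribution. With FPKM as deposited the median log2 FC of all genes was 0.21 and that of the 27 subunits 0.03. After median-ratio scaling between libraries the medians were -0.01 and -0.24, 3 subunits rose and 11 fell, and 12.7% of all genes rose and 12.2% fell. The subunits' share of increases, 3 of 27, then lay near that of all genes, while their share of decreases stayed above it. With TPM (FPKM rescaled to the same sum in every library) in place of FPKM the medians were 0.38 and 0.16, 4 subunits rose and 6 fell, and 40.2% of all genes rose and 3.03% fell. In each scaling the subunits' median lay below that of all genes.

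The libraries differed between the groups in ways that go beyond these genes. The number of genes at 1 FPKM or more ran from 11889 to 12455 in nAAC and from 11182 to 11721 in sham mice, and mitochondrial transcripts took 32.8% to 39.9% of TPM in nAAC and 33.7% to 49.8% in sham mice. Sham replicate 4 stood apart from the other libraries on the second principal component, at -46.2 where the other 9 lay between -15.4 and 21.8. Without it 3 subunits rose and 9 fell, with 0 and 4 DEGs. Cardiomyocyte markers were high in every library (10176 to 16574 summed FPKM in nAAC and 12963 to 24439 in sham mice), as the labelled heart tissue would have.

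**Figure D1:**
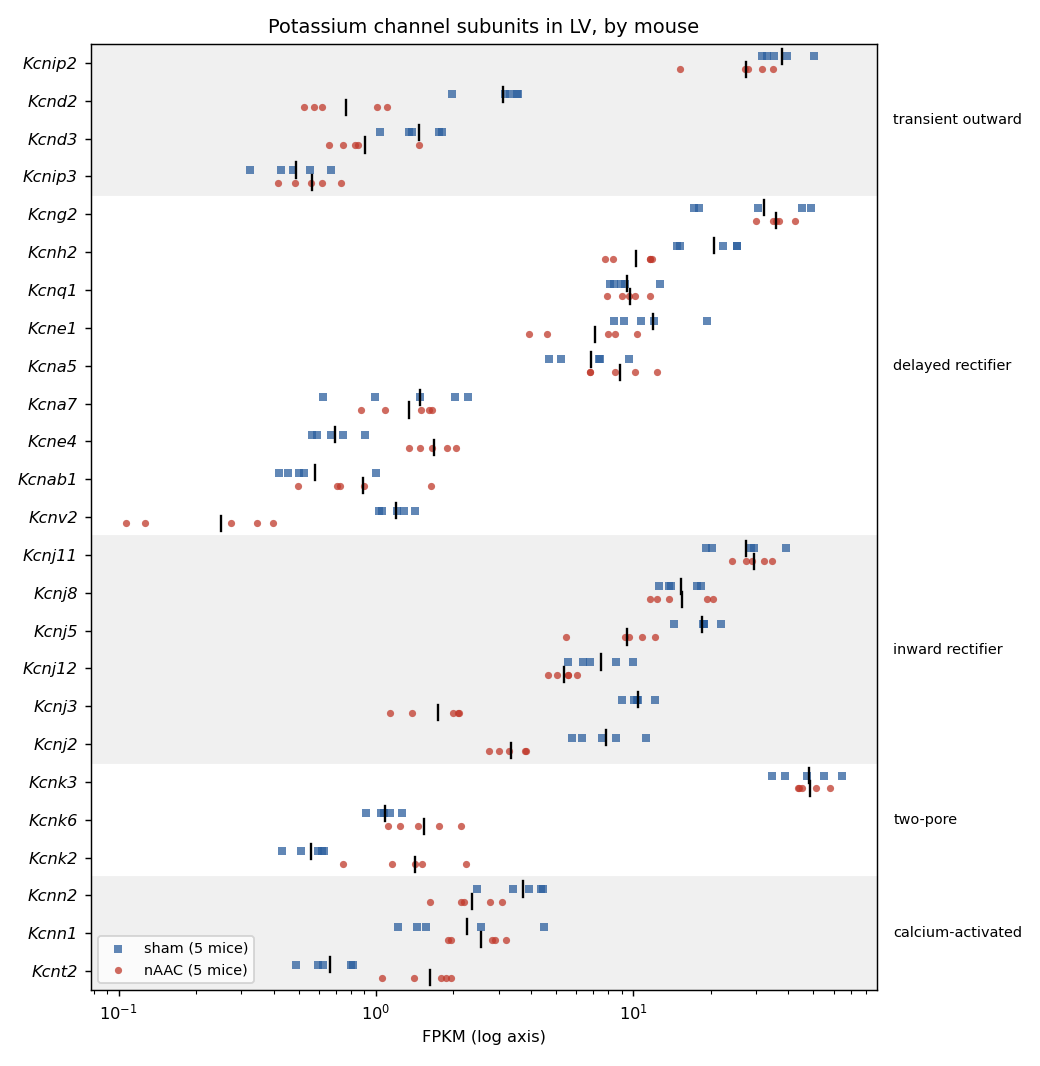
FPKM of 25 of the 27 tested potassium channel subunits (log axis) in each of the 5 sham mice (blue squares) and 5 nAAC mice (red circles), grouped by current, with black ticks at the group means. Kcnj3, Kcnd2, Kcnj2, Kcnj5, Kcnh2 and Kcnv2 show no overlap with the sham mice higher, and Kcne4, Kcnt2 and Kcnk2 show none with the nAAC mice higher.

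Inward rectifiers (Kcnj genes) pass potassium more easily into the cell than out of it and set the resting potential. Of the 15 in the annotation 6 were tested, 3 fell and 0 rose (0 also at an unadjusted p below 0.05), with a median log2 FC of -0.66. Of all genes tested 4.65% fell and 26.5% rose. The 0 covers tested genes only. Below the limit, Kcnj14 (mean 0.740 FPKM in nAAC and 0.119 in sham mice), Kcnj4 (0.592 and 0.0618) and Kcnj10 (0.103 and 0.0268) were higher in nAAC without overlap. This held for 3.32% of genes below the limit with a value above 0. Kcnj14 and Kcnj15 are taken up again with the genes below the limit. The summed FPKM of the 15 genes was 67.1 ± 6.98 in nAAC (SD, n = 5; range 54.8 to 72.4) and 87.3 ± 11.1 in sham mice (SD, n = 5; range 78.6 to 106.5), and the groups did not overlap.

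Kcnj3 had the largest decrease of all tested subunits. It encodes, with Kcnj5, the acetylcholine-activated channel that slows the heart under vagal tone and is best known from atrial and nodal cells. It is annotated on the plus strand at chr2:55435970-55598145 (mm10). Its FPKM was 1.13, 1.99, 1.38, 2.08 and 2.11 in nAAC replicates 1 to 5 and 10.4, 12.1, 10.3, 9.05 and 10.1 in sham replicates 1 to 5. All nAAC mice were far below all sham mice, with little spread within either group. The mean was 1.74 ± 0.450 in nAAC and 10.4 ± 1.10 in sham mice (SD, n = 5), a 5.99-fold higher level in sham, and the log2 FC was -2.07 ± 0.13 (SE; limma adjusted p = 3.05e-07).

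Kcnj5, its partner (minus strand, chr9:32314707-32344350), fell less. Its FPKM was 5.48, 12.1, 10.8, 9.29 and 9.66 in nAAC and 18.8, 18.6, 18.8, 14.4 and 21.9 in sham mice, without overlap. Its log2 FC was -0.93 ± 0.18 (SE; limma adjusted p = 0.00181). Kcnj3 stood 9th in level among the 98 subunits in sham mice and 16th in nAAC mice, while Kcnj5 stood 6th and 8th.

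Kcnj2, the main pore subunit of the ventricular inward rectifier current (plus strand, chr11:111066164-111076821), also fell. Its FPKM was 3.30, 3.78, 2.99, 2.76 and 3.84 in nAAC and 7.55, 8.53, 11.2, 5.77 and 6.29 in sham mice. The nAAC mice were closely grouped below the lowest sham mouse. The log2 FC was -1.01 ± 0.16 (SE; limma adjusted p = 0.000377), just past the DEG limit. Kcnj12, which encodes a second subunit of the same current, was at 5.38 ± 0.546 in nAAC and 7.46 ± 1.78 FPKM in sham mice (SD, n = 5). Its log2 FC of -0.39 had a limma adjusted p of 0.0552, which ran from 0.0042 with median-ratio scaling to 0.236 with TPM over the alternatives. It passed also with upper-quartile scaling (0.0053) and without sham replicate 2 (0.0260) or 4 (0.0478).

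The pore subunits of the ATP-sensitive channels, which open when cellular energy is low, did not pass the test. Kcnj11, the myocyte form, was at 29.5 ± 4.08 in nAAC and 27.3 ± 8.16 FPKM in sham mice, and Kcnj8, the vascular form, at 15.5 ± 4.07 and 15.3 ± 2.55 (SD, n = 5). Their log2 FCs were 0.14 ± 0.19 and -0.003 ± 0.17 (SE; limma adjusted p = 0.574 and 0.992), and both changed sign between scalings.

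**Figure D2:**
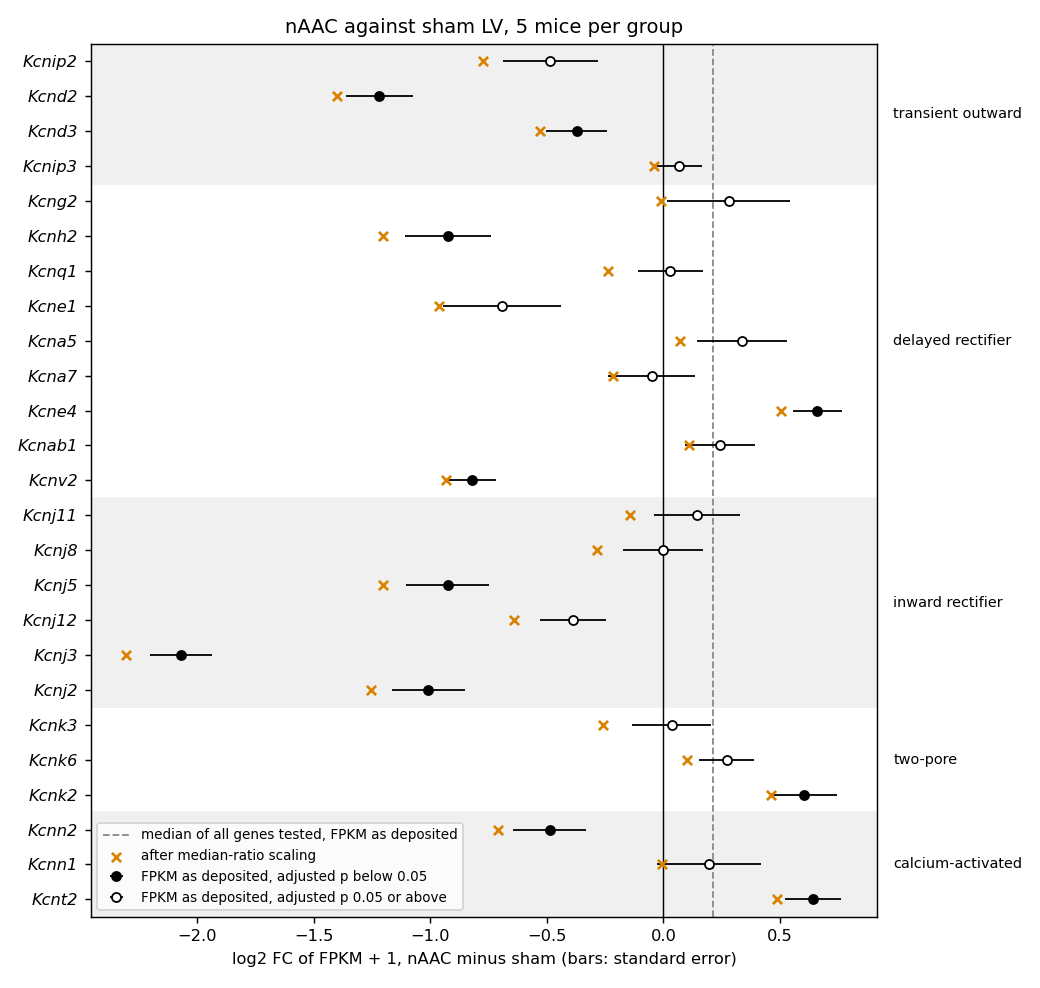
Log2 FC of FPKM + 1, nAAC minus sham, for 25 of the 27 tested subunits (circles, with standard error bars; filled where the adjusted p was below 0.05), and the same after median-ratio scaling (crosses). The dashed line marks the median of all genes tested, 0.21. The 8 decreases reach from -0.37 to -2.07 and the 3 increases from 0.60 to 0.66.

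Transient outward channels open briefly at the start of the action potential and give the mouse ventricle its fast early repolarization. Of 9 subunits 4 were tested, 2 fell and 0 rose (0 also at an unadjusted p below 0.05), with a median log2 FC of -0.43. Of all genes tested 4.65% fell and 26.5% rose. The 0 again covers tested genes only. Kcnip1, below the limit, was at a mean of 0.0785 FPKM in nAAC and 0.00403 in sham mice, without overlap. The summed FPKM of the 9 genes was 30.6 ± 7.58 in nAAC and 43.6 ± 8.01 in sham mice (SD, n = 5), with ranges of 18.1 to 37.5 and 36.8 to 56.5 that overlapped slightly.

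Kcnd2 and Kcnd3 are paralogous alpha subunits of the fast transient outward current. Kcnd2 (plus strand, chr6:21215503-21729805) was at 0.614, 0.572, 0.523, 1.10 and 1.01 FPKM in nAAC and 3.18, 3.57, 3.52, 1.98 and 3.33 in sham mice. The groups did not overlap, and the lowest sham value was that of sham replicate 4. The mean was 4.08-fold higher in sham, and the log2 FC was -1.22 ± 0.14 (SE; limma adjusted p = 4.03e-05), or -1.33 without sham replicate 4. Kcnd2 stood 16th in level among the 98 subunits in sham mice and 26th in nAAC mice.

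Kcnd3 (plus strand, chr3:105452330-105674002) was at 0.657, 1.46, 0.747, 0.825 and 0.855 FPKM in nAAC and 1.75, 1.34, 1.38, 1.04 and 1.81 in sham mice. The groups overlapped through nAAC replicate 2. The log2 FC was -0.37 ± 0.13 (SE; limma adjusted p = 0.0449). The call was lost without nAAC replicate 1, 3, 4 or 5 and without sham replicate 1, 2, 3 or 5 (adjusted p = 0.0630 to 0.105), with TPM (adjusted p = 0.0960), without the limit on low values (adjusted p = 0.106), and with Xist, the transcript that marks female cells, as a covariate (adjusted p = 0.310). Kcnd3os, an antisense transcript, overlaps the locus and reached at most 0.493 FPKM, and the sources used here do not state whether reads were assigned by strand.

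Kcnip2, the accessory subunit that the fast transient outward channel needs to reach the surface, was the third most abundant subunit over the 10 mice. It was at 15.2, 27.1, 34.8, 31.7 and 28.0 FPKM in nAAC and 39.4, 31.6, 35.1, 33.0 and 50.2 in sham mice, with overlap. Its log2 FC of -0.49 ± 0.20 (SE) did not pass the test (limma adjusted p = 0.0883) and passed with median-ratio scaling (-0.78, adjusted p = 0.00648) and upper-quartile scaling. Its adjusted p over the alternatives reached 0.244, with TPM. Kcna4, the alpha subunit of the slow transient outward current, lay just below the limit for testing. It was at 0.422 to 0.744 FPKM in nAAC and 0.277 to 0.501 in sham mice. Kcnip3, related to Kcnip2, had a log2 FC of 0.07 (limma adjusted p = 0.611; -0.039 with median-ratio scaling).

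The promoters of Kcnj3, Kcnd2 and Kcnd3 are shown because the first 2 genes had the largest decreases on the log2(FPKM + 1) scale and the third is the paralogue of Kcnd2. By the ratio of means Kcnv2 fell more than Kcnd2 (4.81-fold against 4.08-fold higher in sham). This choice was made with the values known. The sequences are from RefSeq on GRCm38.p6 and run 5′ to 3′ from 250 bases before to 50 bases after the RefSeq start of transcription. They lie at chr2:55435720-55436019, chr6:21215096-21215395 and chr3:105451640-105451939, all on the plus strand. For Kcnd2 and Kcnd3 they end before the gene starts of the annotation used for FPKM (chr6:21215503 and chr3:105452330). Capitals mark GCGTG read on either strand (CACGC when it lies on the other strand), the core of the element bound by the aryl hydrocarbon receptor, the receptor for kynurenine that the study is about.
Kcnj3: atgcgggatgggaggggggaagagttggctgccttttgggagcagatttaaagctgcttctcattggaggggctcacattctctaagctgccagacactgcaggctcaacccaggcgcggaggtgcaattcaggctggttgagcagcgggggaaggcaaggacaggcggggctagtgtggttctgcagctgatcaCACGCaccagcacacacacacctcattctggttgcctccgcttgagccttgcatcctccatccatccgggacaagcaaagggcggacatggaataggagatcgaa
Kcnd2: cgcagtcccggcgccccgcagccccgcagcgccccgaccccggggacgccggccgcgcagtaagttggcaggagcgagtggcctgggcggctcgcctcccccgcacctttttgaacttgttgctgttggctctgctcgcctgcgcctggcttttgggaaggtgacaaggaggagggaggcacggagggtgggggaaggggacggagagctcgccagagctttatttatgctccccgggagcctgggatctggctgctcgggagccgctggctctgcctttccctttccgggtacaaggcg
Kcnd3: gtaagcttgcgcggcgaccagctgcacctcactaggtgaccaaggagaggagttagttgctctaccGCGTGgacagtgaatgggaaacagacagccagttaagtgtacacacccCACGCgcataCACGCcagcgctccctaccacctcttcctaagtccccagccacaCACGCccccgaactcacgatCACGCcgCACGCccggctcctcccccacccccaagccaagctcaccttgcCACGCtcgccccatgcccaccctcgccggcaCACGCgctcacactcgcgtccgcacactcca
Kcnj3 held 1 such match, starting at base -55, Kcnd2 held 0 and Kcnd3 held 8. How often other promoters hold 8 matches is not given here. G and C made up 57.7% of the bases for Kcnj3, 68.7% for Kcnd2 and 64% for Kcnd3, against a median of 52.7% over all promoters. The motif TGANTCA, the site of AP-1 factors, searched on both strands, was in none of the 3, so the motifs did not overlap there. GCGTG was present in 34.4% of the 96 promoters listed for 71 of the subunits and in 33.3% of the 12 promoters listed for 9 of the 11 genes that rose or fell, against 32.4% of all 32851 promoters of the same length. TGANTCA was present in 4.17%, 8.33% and 7.81% of them. These are matches of letters in a fixed window and not sites.

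Delayed rectifiers open more slowly and end the action potential. This is the largest group, 43 genes with their accessory, silent and beta subunits, of which 11 were tested, 2 fell and 1 rose, with a median log2 FC of 0.05. The summed FPKM of the 43 genes was 84.8 ± 6.54 in nAAC and 92.5 ± 25.0 in sham mice (SD, n = 5), and the groups overlapped.

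Kcnh2, the pore of the rapid delayed rectifier and the target of many drugs that prolong the QT interval (minus strand, chr5:24319589-24351604), fell. Its FPKM was 7.79, 11.6, 11.6, 11.8 and 8.35 in nAAC and 22.3, 15.2, 14.7, 25.4 and 25.2 in sham mice. The groups did not overlap, and the sham mean was 2.01-fold higher. The log2 FC was -0.92 ± 0.18 (SE; limma adjusted p = 0.00218), and with median-ratio scaling it was -1.20.

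Kcnv2 encodes a silent subunit that forms no channel alone and alters the gating of other delayed rectifier subunits (plus strand, chr19:27322588-27337179). It was low in both groups, at 0.107, 0.273, 0.126, 0.343 and 0.396 FPKM in nAAC and 1.20, 1.06, 1.03, 1.29 and 1.42 in sham mice. The groups were widely apart, with a 4.81-fold higher sham mean, and the gene reached the limit for testing only through the sham mice, so that it had to differ to be among the genes counted. The log2 FC was -0.82 ± 0.10 (SE; limma adjusted p = 5.94e-05), below the DEG limit on a scale with 1 added to each FPKM.

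Kcne4, an accessory subunit that inhibits several delayed rectifiers including Kcnq1 (plus strand, chr1:78816758-78820028), rose. Its FPKM was 1.64, 1.89, 1.48, 2.04 and 1.35 in nAAC and 0.903, 0.590, 0.561, 0.667 and 0.743 in sham mice. Every nAAC mouse was above every sham mouse. The mean was 2.42-fold higher in nAAC and the log2 FC 0.66 ± 0.10 (SE; limma adjusted p = 0.000439).

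Kcne1, the accessory subunit that slows Kcnq1, was at 3.92, 8.0, 4.61, 8.52 and 10.3 FPKM in nAAC and 8.40, 9.22, 10.7, 19.3 and 12.0 in sham mice, with overlap. Its log2 FC of -0.69 ± 0.25 (SE) had a limma adjusted p of 0.0531, which ran from 0.00644 with upper-quartile scaling to 0.146 without the limit on low values over the alternatives. It passed also with median-ratio scaling (0.00756) and without nAAC replicate 5 (0.0309) or sham replicate 1 (0.0480), and was 0.0953 without sham replicate 4. Kcnq1, the pore of the slow delayed rectifier, was at 9.66 ± 1.38 in nAAC and 9.49 ± 1.85 FPKM in sham mice (SD, n = 5; limma adjusted p = 0.884). Kcna5, an alpha subunit of a main delayed rectifier of the mouse ventricle, was at 8.91 ± 2.38 in nAAC and 6.86 ± 1.94 FPKM in sham mice (SD, n = 5; limma adjusted p = 0.200). The silent subunit Kcng2 was the second most abundant subunit in nAAC mice, at 36.0 ± 4.46, and varied from 17.3 to 49.1 FPKM among sham mice (log2 FC 0.28, limma adjusted p = 0.440; -0.0096 with median-ratio scaling). Kcna7 and Kcnab1 had log2 FCs of -0.05 and 0.24 and did not pass the test.

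Two-pore channels carry background currents. Of 14 genes 3 were tested, 1 rose and 0 fell (0 also at an unadjusted p below 0.05), with a median log2 FC of 0.27. Kcnk3, an acid-sensitive background channel, was the most abundant of all 98 subunits in both groups, at 48.4 ± 6.18 in nAAC and 48.1 ± 12.1 FPKM in sham mice (SD, n = 5; log2 FC 0.03, limma adjusted p = 0.891). The antisense gene Gm9899 overlaps it, at 4.34 and 3.05 FPKM.

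Kcnk2, a channel opened by membrane stretch and lipids (minus strand, chr1:189207930-189402273), was the one that rose. Its FPKM was 1.42, 0.743, 1.16, 2.23 and 1.51 in nAAC and 0.510, 0.595, 0.431, 0.629 and 0.619 in sham mice, without overlap. The log2 FC was 0.60 ± 0.14 (SE; limma adjusted p = 0.00602), and with Xist as a covariate it was 0.41 with an adjusted p of 0.0820. The pseudogene Pdcd5-ps lies within the gene on the same strand, at a mean of 31.5 in nAAC and 38.9 FPKM in sham mice. Kcnk6 was at 1.54 ± 0.414 in nAAC and 1.09 ± 0.126 FPKM in sham mice, with a log2 FC of 0.27 (limma adjusted p = 0.0974).

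Among the 12 calcium-activated channels and their sodium- or pH-gated relatives 3 were tested, 1 rose and 1 fell. Kcnt2, a sodium-activated channel (plus strand, chr1:140246158-140612067), rose. Its FPKM was 1.87, 1.40, 1.05, 1.96 and 1.79 in nAAC and 0.597, 0.814, 0.801, 0.489 and 0.625 in sham mice, without overlap. The mean was 2.43-fold higher in nAAC and the log2 FC 0.64 ± 0.12 (SE; limma adjusted p = 0.00134).

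Kcnn2, a small-conductance channel gated by calcium through calmodulin, was at 1.62, 2.13, 2.20, 3.09 and 2.78 FPKM in nAAC and 3.92, 4.37, 2.47, 3.41 and 4.46 in sham mice. It fell, with overlap between the groups (log2 FC -0.49 ± 0.15, SE; limma adjusted p = 0.0292). The call was lost without nAAC replicate 1, 2 or 3 and without sham replicate 1, 2 or 5 (adjusted p = 0.0592 to 0.0685). It was lost also with TPM (adjusted p = 0.0977), without the limit on low values (adjusted p = 0.0748) and with Xist as a covariate (log2 FC -0.58, adjusted p = 0.0568). Kcnn1, of the same family, had a log2 FC of 0.20 (limma adjusted p = 0.522). Kcnma1, the large-conductance channel, was listed at 0.009 to 0.110 FPKM in nAAC and 0 to 0.0163 in sham mice and was not tested.

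Of the 11 genes that rose or fell, Kcnj3, Kcnd2, Kcnj2, Kcnj5, Kcnh2, Kcnv2, Kcnt2 and Kcne4 (8 of 11) kept their direction and stayed past the test in every alternative fit that held them, including those that left out each mouse in turn. There were 19 such fits for each but Kcnv2, which had 18, since its mean lay below 1 FPKM, the stricter limit of 1 of the fits. Kcnn2, Kcnd3 and Kcnk2 each lost the call in at least 1 fit.

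Subunits that share a current were also compared as shares of their summed FPKM within each library, a measure that does not depend on the scaling between libraries. The shares were tested by a two-sided exact permutation test, with p adjusted over 5 such tests, and the smallest p that 5 against 5 mice can give is 0.00794. Kcnd2 made up 48.3%, 28.1%, 41.2%, 57.2% and 54.1% of Kcnd2 plus Kcnd3 in nAAC and 64.5%, 72.7%, 71.8%, 65.7% and 64.8% in sham mice. All 5 nAAC mice were below all sham mice, and the mean share was lower by 22.1 percentage points (exact permutation p = 0.00794, adjusted p = 0.0198).

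Kcna4 made up 30.3%, 26.7%, 30.8%, 23.9% and 18.5% of the summed transient outward alpha subunits Kcna4, Kcnd2 and Kcnd3 in nAAC and 6.44%, 7.58%, 7.39%, 8.41% and 8.90% in sham mice. The share of Kcna4 was thus higher in every nAAC mouse, by 18.3 percentage points in the mean (exact permutation p = 0.00794, adjusted p = 0.0198). This share largely restates the fall of Kcnd2 in its denominator, from a mean of 3.11 FPKM in sham to 0.764 in nAAC mice. Kcna4 itself was at a mean of 0.578 FPKM in nAAC and 0.382 in sham mice, with overlap. It did not pass without the limit on low values (limma adjusted p = 0.0921). The 2 shares use the same Kcnd2 values and are not independent. Without sham replicate 4 the differences were -22.7 and 18.5 percentage points (exact permutation adjusted p = 0.0397 for each).

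Kcnj2 made up 38.2% ± 3.57 of Kcnj2 plus Kcnj12 in nAAC and 51.1% ± 10.5 in sham mice (SD, n = 5). The difference of -12.9 percentage points passed the test (exact permutation p = 0.0238, adjusted p = 0.0397). The groups overlapped through sham replicate 5, at 38.7%, and the difference kept its call only when that mouse was the one left out (-16.0, exact permutation adjusted p = 0.0265). Leaving out any other single mouse, which with 4 against 5 also raises the smallest possible p, gave adjusted p values of 0.0529 to 0.0794. The share of Kcnj8 in Kcnj8 plus Kcnj11 differed by -2.30 percentage points and did not pass (exact permutation adjusted p = 0.563).

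**Figure D3:**
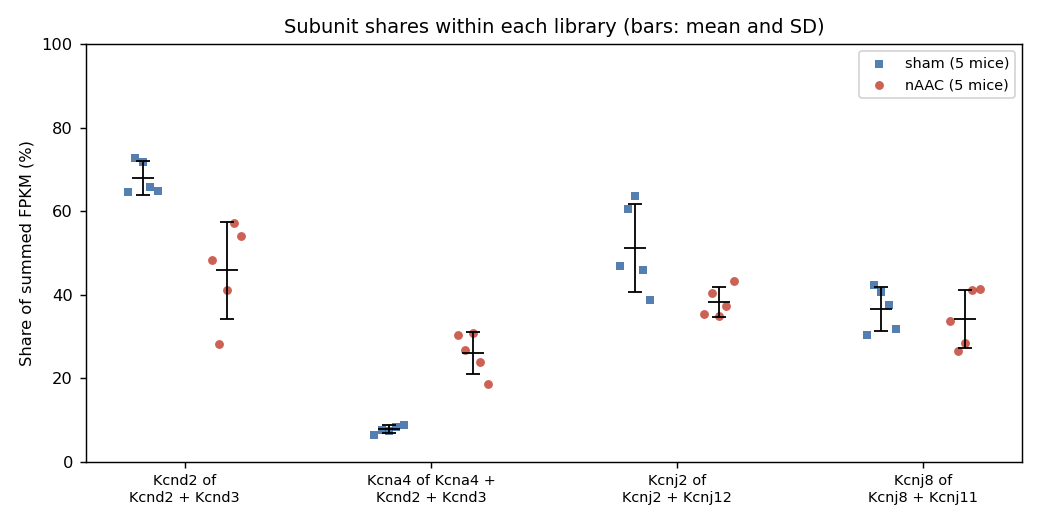
Share of 1 subunit in the summed FPKM of its set (percent), by mouse, for 5 sham mice (blue squares) and 5 nAAC mice (red circles), with mean and SD. The share of Kcnd2 is lower and that of Kcna4 higher in all nAAC mice, while the 2 sets on the right overlap.

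The 71 subunits below the limit for testing included 10 listed at 0 FPKM in every library and 44 with a mean under 0.1. The 5 genes placed in none of the current types are among the 71. The nearest to the limit were Kcna4 (mean 0.480), Kcnmb1 (0.488) and Kcnn3 (0.496) below it and Kcnip3 (0.526) and Kcnv2 (0.724) above it. Of the 61 with a value above 0 in some library, 7 had all nAAC mice above all sham mice and 0 the reverse, against 3.32% and 0.676% of the 15833 such genes. When the limit was removed, 88 subunits and 29309 genes could be fitted, and 8 subunits rose and 6 fell, against 11.6% and 2.13% of all genes. The 5 added increases were all of low genes.

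Kcnn3, a second small-conductance calcium-activated channel, was at 0.822, 0.579, 0.531, 1.19 and 0.899 FPKM in nAAC and 0.305, 0.198, 0.203, 0.120 and 0.119 in sham mice (limma without the limit, adjusted p = 0.00363). Kcnmb1, the smooth muscle accessory subunit of Kcnma1, was at 0.579 to 0.874 in nAAC and 0.227 to 0.395 FPKM in sham mice (adjusted p = 0.00344 in the same fit). The inward rectifier subunits Kcnj14 and Kcnj15 were at 0.740 ± 0.330 and 0.662 ± 0.233 in nAAC and 0.119 ± 0.0445 and 0.271 ± 0.127 FPKM in sham mice (adjusted p = 0.00472 and 0.0409). Kcnc1, a fast delayed rectifier best known from neurons, was listed at 0 in all 5 sham mice and at 0.200 to 0.531 FPKM in nAAC mice (adjusted p = 0.00182). The coverage behind these values was low. The deposited mean number of reads over each base was 1.90 to 3.37 for Kcnn3 in nAAC and 0.166 to 1.16 in sham mice, 0.638 to 1.60 and 0.209 to 0.701 for Kcnj15, and 0.581 to 1.52 and 0 for Kcnc1.

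Partners and regulators of these channels whose symbols do not start with Kcn formed a list of 15 genes, of which 11 were tested, 1 rose and 0 fell, with a median log2 FC of 0.09. Of all genes tested 26.5% rose and 4.65% fell. At an unadjusted p below 0.05, 3 of the list were higher and 3 lower, against 4871 and 900 of all 13476 genes. With median-ratio scaling 0 of the list rose and 4 fell, against 12.7% and 12.2% of all genes.

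Those 4 were Abcc9, Irx3, Irx5 and Klf15. Abcc9, the sulfonylurea receptor that pairs with the ATP-sensitive pore subunits in heart, was at 27.2 ± 4.76 in nAAC and 41.0 ± 11.6 FPKM in sham mice (log2 FC -0.53, limma adjusted p = 0.0822), while its relative Abcc8 was at 5.16 and 5.22. Irx5, a transcription factor that shapes the gradient of Kcnd2 across the ventricular wall, was at 2.83 ± 0.414 and 4.43 ± 1.52 FPKM (log2 FC -0.47, adjusted p = 0.0502). Klf15, a regulator of the daily rhythm of Kcnip2, was at 11.9 ± 0.693 and 15.7 ± 3.92 FPKM (log2 FC -0.34, adjusted p = 0.114).

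Marker genes of other cell types moved with the groups. In bulk samples, fewer cells of a type and less RNA per cell cannot be told apart. Of 8 cardiomyocyte markers 1 rose and 2 fell (log2 FC 0.67 for Actn2, -0.82 for Tnni3 and -0.86 for Pln), and with median-ratio scaling 0 rose and 3 fell. Fibroblast markers rose in 5 of 6, with a summed FPKM of 481 to 864 in nAAC and 344 to 371 in sham mice. Mural cell markers rose in 5 of 6, from a sum of 163 to 275 FPKM in sham to 260 to 379 in nAAC mice. With median-ratio scaling 3 of the 6 fibroblast and 3 of the 6 mural markers rose. Kcnmb1 is mostly found in mural cells. Kcne4, Kcnt2 and Kcnk2 moved in the same direction as these lists, as did 26.5% of all genes tested. A link between these subunits and these cell types was not tested.

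Of the 5 endothelial markers 1 rose, or 0 with median-ratio scaling (133 to 244 summed FPKM in nAAC and 125 to 199 in sham mice), and of the 5 macrophage markers 1 rose (44.5 to 84.9 and 20.7 to 48.1). None of the 5 T cell markers reached the limit for testing, and they summed to at most 0.858 FPKM. Of 4 tested atrial markers 1, Dkk3, rose, and Bmp10 was at or near 0 in every library. The atrial list of 5 summed to 14.3 to 250 FPKM in nAAC and 4.37 to 49.4 in sham mice. Single mice set the high ends, at 250 and 152 in nAAC replicates 3 and 2 and 49.4 in sham replicate 1. Myl7, Myl4 and Sln did not pass the test (limma adjusted p = 0.529, 0.335 and 0.390). Kcnj3 and Kcnj5, best known from atrial cells, fell, and an atrial part in their values was not tested.

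Of the 4 conduction system markers 3 were tested and 2 fell, Hcn4 by 0.51 and Cntn2 by 0.54 on the log2 scale, with a sum of 2.0 to 4.22 FPKM in nAAC and 3.73 to 6.20 in sham mice. Of the 6 nerve and glia markers 2 were tested and 1 fell, Dbh, the noradrenaline-making enzyme of sympathetic nerves, from 1.10 to 0.0968 FPKM in the mean. Cntn2 and Dbh reached the limit for testing only through the sham mice, so their calls rest in part on that limit. The list summed to 1.29 to 2.49 in nAAC and 2.63 to 3.62 FPKM in sham mice, while Th was at or near 0 in both groups. The part of any of these cell types in the values of the channel genes was not tested.

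**Figure D4:**
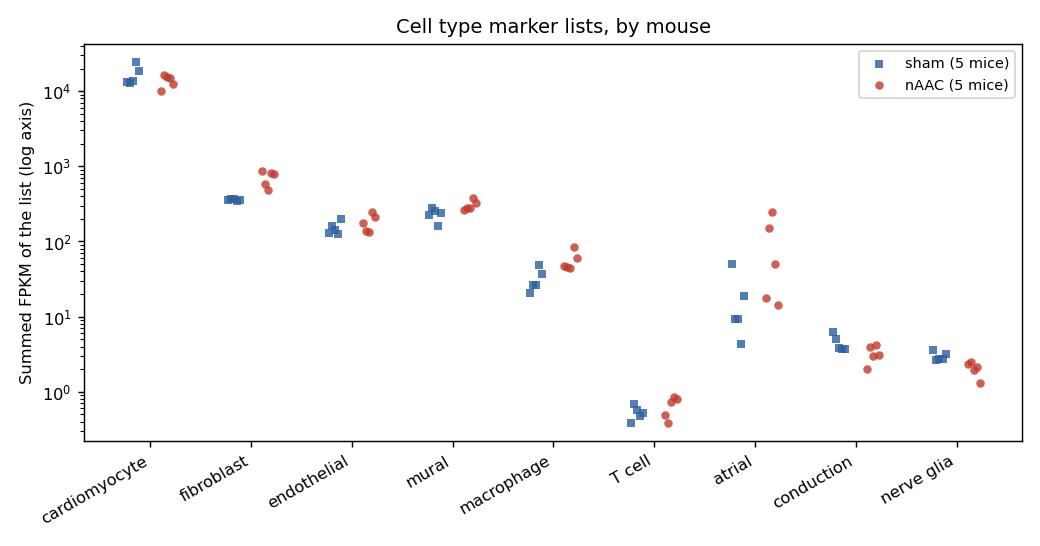
Summed FPKM of 9 cell type marker lists (log axis) in each of the 5 sham mice (blue squares) and 5 nAAC mice (red circles). The fibroblast sums are higher in all nAAC mice (481 to 864 against 344 to 371), the nerve and glia sums are lower in all of them, and the cardiomyocyte sums overlap.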

How the data were processed

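LV RNA of 5 nAAC and 5 sham mice was extracted with Trizol, and libraries were made with the NEBNext Ultra RNA kit. The authors deposited 1 gene table per mouse on mm10, with the coverage per base, the FPKM and the TPM of each gene. The aligner, quantifier and strand setting are not given in the sources used here, although the columns resemble StringTie output. Groups came from the sample labels. No counts are held, so counting error is unknown; depth was estimated at 4.86 to 6.82 gigabases in nAAC and 5.06 to 5.24 in sham libraries.

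Rows that share a gene ID were summed (0 for these subunits). The test was limma 3.58.1 (R 4.3.3) with an empirical Bayes trend on log2(FPKM + 1), for 13476 genes with a mean of at least 0.5 FPKM, adjusted by the Benjamini-Hochberg method. It was tested on simulated data first. Shares were compared by exact permutation (scipy 1.17.1), and figures were drawn with matplotlib 3.10.9. Nothing but surgery entered the model. Limma p values set the group difference against the spread between libraries, moderated across genes. With 1 library per mouse, that spread holds animal and technical variation together. Alternatives changed the scaling, unit, pseudocount (0.1), limit on low values, threshold (0.01), replicate block and Xist covariate, and left out each mouse. The subunits and lists were chosen with earlier results of these data known. Every subunit past the test was named, and 19 cardiac subunits whatever they showed. RefSeq promoters matched 71 of the 98 symbols. A few genes and 1 of the 5 shares are not reported here; they remain in all counts, medians and sums over lists.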

Additional observations from a re-analysis of the deposited data

Results flagged for a closer look

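In 3 of 58 groups of 5 mice, the highest or lowest value stood apart from the rest, by a gap to the nearest mouse that exceeded 0.71 of the group's range. About 2.9 such groups are expected by chance. The 3 flagged groups were of single subunits on the log2(FPKM + 1) scale. The gap was 0.793 of the range for Kcnd2, where sham replicate 4 was lowest. It was 0.789 for Kcnab1, where sham replicate 3 was highest, and 0.716 for Kcnd3, where nAAC replicate 2 was highest.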

How the results depend on the processing

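The counts of subunits that rose (3) or fell (8) stayed at 3 and ran from 6 to 9 when single mice were left out, and the DEGs stayed at 0 and ran from 2 to 4. Without the limit on low values 8 rose. DEGs lower in nAAC numbered 5 with median-ratio and 5 with upper-quartile scaling, and with a pseudocount of 0.1 there were 3 DEGs higher in nAAC. The replicate block gave 3 and 8 calls with 0 and 3 DEGs, and ended the call of Kcnd3 (adjusted p = 0.0719) and added that of Kcne1 (adjusted p = 0.0149); the shared numbers did not pair the mice (correlations from -0.298 to 0.179, none highest with its own number). The Kcnj2 share differed by -16.0 to -9.78 percentage points without single mice. Its call was lost in 9 of those 10 fits.

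Log2 FCs of subunits that did not pass the test changed sign. With median-ratio scaling they were Kcnn1 -0.0050, Kcng2 -0.0096, Kcnq1 -0.24, Kcnj11 -0.14, Kcnip3 -0.039 and Kcnk3 -0.26. With upper-quartile scaling they were Kcnq1 -0.22, Kcnj11 -0.12, Kcnip3 -0.035 and Kcnk3 -0.24. With TPM they were Kcna7 0.058 and Kcnj8 0.16. With Xist as a covariate they were Kcng2 -0.14, Kcnj11 -0.0044 and Kcnk3 -0.19. Without single mice the ranges were Kcnq1 -0.033 to 0.13, Kcna7 -0.19 to 0.062, Kcnj8 -0.10 to 0.085 and Kcnk3 -0.071 to 0.15. No gene that rose or fell changed sign in the 19 alternatives (18 for Kcnv2 and Kcnk2, which a limit of 1 FPKM leaves out). Alternatives that changed only the limit, the threshold or the block left each log2 FC as it was, so no sign could change there. The cause of the sign changes was not tested. Without counts, the precision of subunits near 1 FPKM could not be given.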
